A study of Mus musculus with 182 samples.

Results

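The splicing factor genes described here are the 50 autosomal mouse genes in the count table whose symbols start with Snrp (11 genes), Sf3a or Sf3b (9 genes, called Sf3 below), Srsf (11 genes) or Hnrnp (19 genes). They were taken by name from 24499 genes, 23273 of them autosomal. Snrpn, which is imprinted, and the X-linked Hnrnph2 were left out. Reads were counted for 49 of the 50 genes. Srsf12 had no read in any of the 182 cells, which allows it at most 0.00187 CPM (counts scaled to the library total) over all cells together, whose counts add up to 1604M (M for mega), and it stays out of the results.

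Before an intron is cut out, small nuclear RNAs packed into protein particles (snRNPs) find its ends. The Snrp genes encode proteins of these particles: the Sm proteins, which form a ring around most of the small nuclear RNAs, and the proteins that belong to the U1 particle, which reads the 5′ splice site, or to the U2 particle, which reads the branch point. The Sf3 genes encode the parts of the U2 particle that hold it on the branch point. SR proteins, from the Srsf genes, bind exons and mostly help the machinery to use them, whereas the heterogeneous nuclear ribonucleoproteins, from the Hnrnp genes, coat nascent transcripts and often work against the use of an exon. A fertilised mouse egg starts with RNA made by its mother, destroys much of it, and begins its own transcription in earnest at the 2-cell stage.

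The measurements are from single cells, either oocytes or blastomeres of embryos with 2, 4, 8, 16, 32 or 64 cells (2C to 64C), conceived by natural mating and not cultured. The cells labelled mutant (Xist wt/ko) belong to embryos in which the study deleted the paternal Xist allele. They come only from CB embryos, which have a Cast/EiJ (Cast) mother and a C57BL/6J (B6) father, and comprise 69 cells: 60 from females of the stages 8C, 16C, 32C and 64C, and 9 from males of 32C and 64C. Males receive no X from their father, so the 9 male cells have no paternal Xist allele whatever their label says. The 106 wild-type blastomeres (Xist wt/wt) come from CB embryos and from BC embryos, which have a B6 mother and a Cast father, in both sexes at every stage except male CB embryos at 4C. The 7 oocytes comprise 4 of B6 and 3 of Cast. The labels name no embryo, so all cells with the same stage, cross, sex and genotype were added up to 1 sum, and 1 sum was 1 sample: 25 wild-type and 6 mutant sums, 4 of them made of 1 cell. The cell that makes up the 2C CB female sum carries conflicting cross labels. Without it 14 members instead of 16 were called from oocyte to 2C and 12 instead of 15 from 2C to 4C (3742 and 1253 of all genes).

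The stage labels were checked against marker genes. The 6 oocyte markers added up to 17700 to 31500 CPM in the oocyte sums and to at most 2260 CPM in any later wild-type sum, and the 6 markers of 2-cell activation to 344 to 1130 CPM at 2C and to at most 60.3 CPM at other stages. Markers of the cumulus and granulosa cells that surround an oocyte added up to 11.2 and 46 CPM in the oocyte sums, with 3 of 7 genes at 0, and to at most 7.81 CPM later. The Xist check of the genotype gave 0.167 to 14.1 CPM in the 4 mutant female sums, against 35.5 to 125 CPM in the matching wild-type CB females, but 2 of the 7 cells labelled mutant at 8C held 21.2 and 80.6 CPM. Without these 2 cells the test of genotype called 0 members, as it did with them. A cell held between 2.54M and 40.05M counted reads.

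Together the splicing factor genes took more of the counted RNA after fertilisation than before it (the plot of family shares). They made up 0.862 ± 0.0881% of all counts in oocytes (SD, n = 2 sums), 1.3 ± 0.245% at 2C (n = 4), and 1.86 ± 0.115% at 4C (n = 3). With 4 sums each, the 8C embryos followed with 1.73 ± 0.101%, the 16C embryos with 1.51 ± 0.0738%, the 32C embryos with 1.36 ± 0.124% and the 64C embryos with 1.33 ± 0.143%. Every 4C and 8C sum lay above every oocyte sum and every 2C sum. A share of counts is relative to all other RNA of a cell, so more RNA of these genes and less RNA of other genes cannot be told apart.

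**Figure D1:**
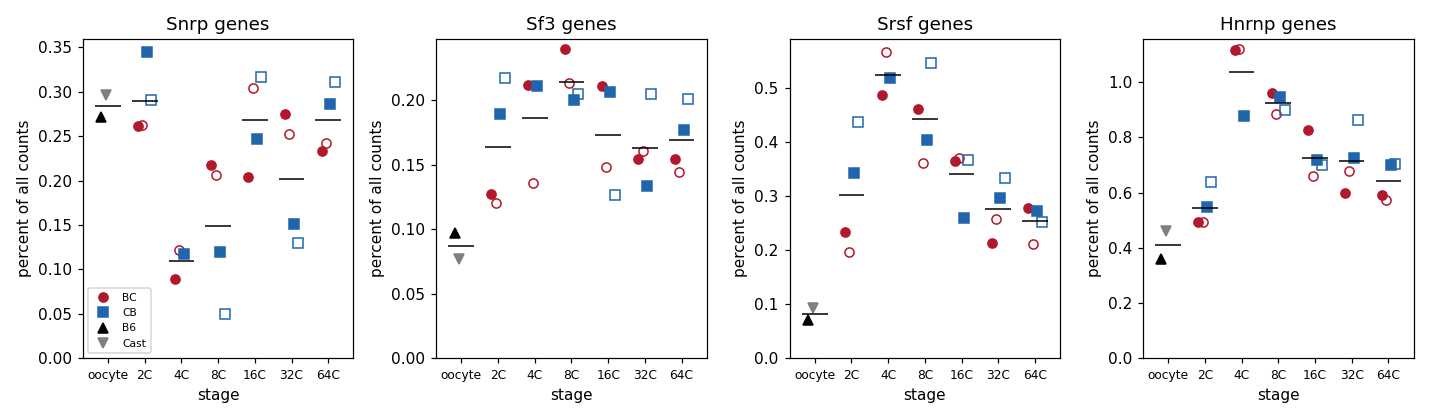
Percent of all counted reads (y axis) taken by each of the families Snrp, Sf3, Srsf and Hnrnp at each stage (x axis, oocyte to 64C), 1 point per wild-type sum (filled for females, open for males, with oocytes, BC and CB marked by shape) and a horizontal line at the stage mean. The Srsf and Hnrnp genes are highest at 4C, with means of 0.524% and 1.04%, where the Snrp genes are lowest, with a mean of 0.109%. A wider set of 641 genes that holds several Snrp genes also fell from 2C to 4C.

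The families did not move together. The Hnrnp genes took 0.409 ± 0.0703% of counts in oocytes, 0.542 ± 0.0675% at 2C, 1.04 ± 0.138% at 4C and 0.642 ± 0.0702% at 64C. The Srsf genes took 0.0816 ± 0.015% in oocytes, 0.303 ± 0.11% at 2C, 0.524 ± 0.0399% at 4C and 0.254 ± 0.0305% at 64C. Both families therefore had their highest mean at 4C. The Snrp genes took 0.284 ± 0.0172% in oocytes, 0.29 ± 0.039% at 2C, 0.109 ± 0.0178% at 4C and, in later embryos, 0.148 ± 0.0789% (8C) and 0.268 ± 0.0369% (64C), so that their mean was lowest where those of the Hnrnp and Srsf genes peaked. A wider set of 641 genes, described below with the step from 2C to 4C, also fell there. It took 16.4 to 18.5% of counts in the 2C sums and 5.79 to 7.2% in the 4C sums. Snrpc, Snrpd1, Snrpd2, Snrpd3, Snrpe and Snrpg belong to it, and its part in the family trend was not tested. The Sf3 genes stayed between 0.163% and 0.214% in the mean from 2C on, highest at 8C, above their 0.087 ± 0.0145% in oocytes.

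By single genes, 28 of the 49 measured members had their lowest stage mean in oocytes. These means are in CPM, scaled by the total count alone. In that scaling the median log2 change of all genes from oocyte to 2C was 1.45. For all genes, the stages of the lowest and the highest mean were not counted. The stage with the highest mean was 4C for 12 members, 8C for 11, oocyte for 7, 64C for another 7, 2C for 6, 16C for 4 and 32C for 2. Of the 7 members highest in oocytes, 6 were Snrp genes. A test for any difference among the 7 stages (edgeR's quasi-likelihood test on the sums, Benjamini-Hochberg adjusted over 16622 genes, threshold 0.05) called 41 of 49 members, where 68.3% of all genes tested were called. By family, this was 10 of 11 Snrp, 7 of 9 Sf3, 10 of 10 measured Srsf and 14 of 19 Hnrnp genes.

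**Figure D2:**
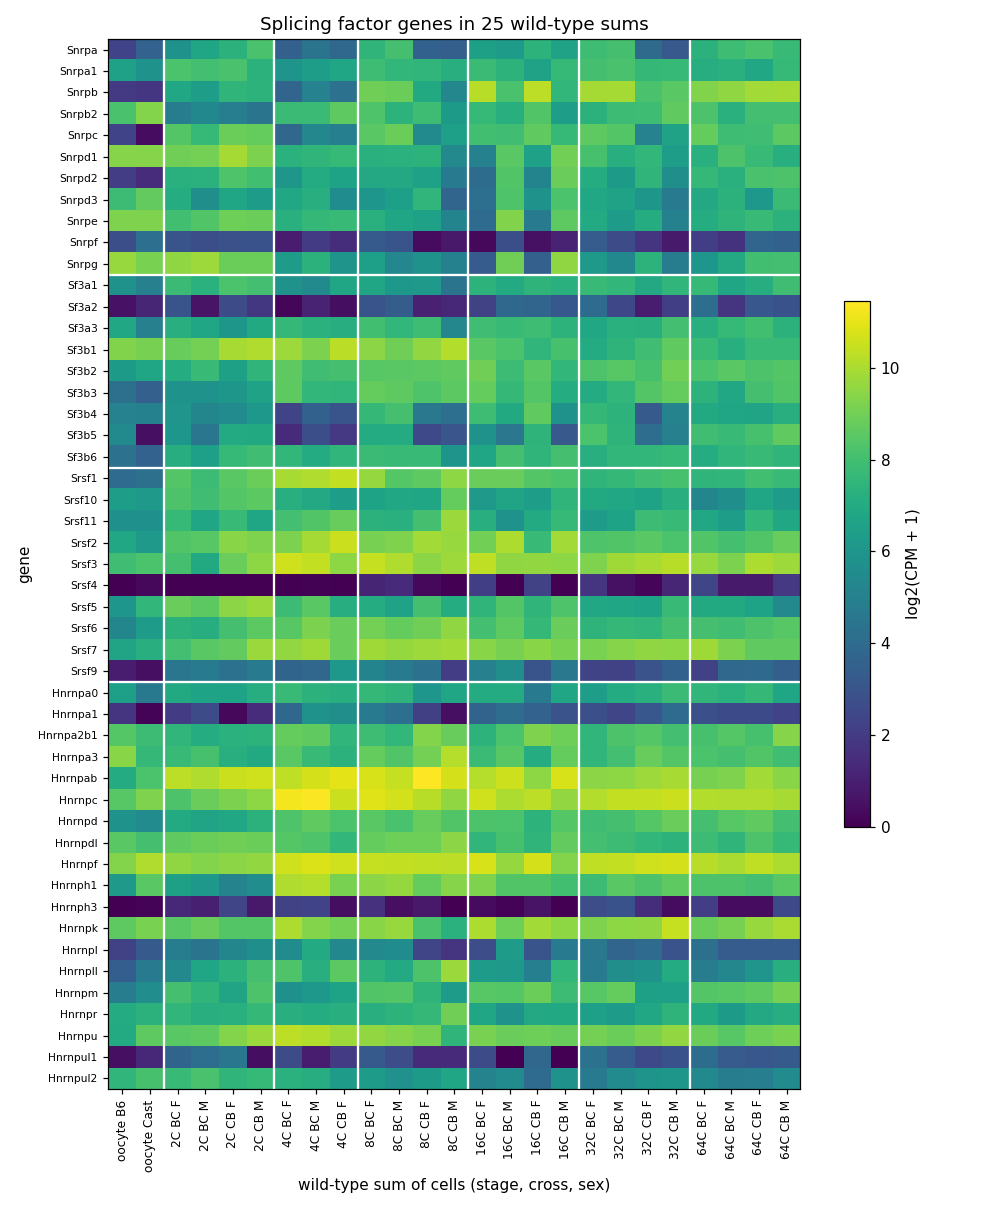
Heat map of the 49 measured splicing factor genes (rows, in the order Snrp, Sf3, Srsf, Hnrnp from top to bottom) in the 25 wild-type sums (columns, in stage order), coloured by log2 of CPM plus 1, from dark (low) to bright (high). Of the 49 rows, 28 have their lowest stage mean in the oocyte columns. In this scaling by the total count, the median log2 change of all genes from oocyte to 2C was 1.45. Several Snrp genes change between neighbouring columns of one stage at 8C, 16C and 32C, as Snrpg does at 16C between 9.18 and 744 CPM.

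How far counts follow length after amplification from the 3′ end was not tested. Levels of different genes are compared here by a length-corrected signal that the authors deposited (RPRT). Its length is not one fixed value per gene: the ratio of mean CPM to mean RPRT differed more than 2-fold between stages in 19 of 49 members, with a median of 1.78 for the highest over the lowest stage, so the order of genes by RPRT depends on that correction. Averaged over wild-type sums, Snrpg and Snrpe, both Sm ring proteins, reached signals of 630 and 463. Hnrnpab, Hnrnpf and Hnrnpc, all RNA-coating proteins of the nucleus, reached 555, 535 and 419. These 5 were the highest of the 49. The lowest were Srsf4, an SR protein, at 0.499, Hnrnph3 at 0.848, Hnrnpa1 at 5.41, the Sm ring gene Snrpf at 6.63 and Sf3a2, a branch point factor, at 9.62. Hnrnpa1 and some of the small Snrp genes have near-identical copies elsewhere in the mouse genome, and how reads with several matches were counted is not given in the sources used here, so the levels of Hnrnpa1 and Snrpf are uncertain.

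Between oocyte and 2C, the genes of 3 snRNP proteins that were nearly silent in oocytes rose, while the gene of another fell. Snrpc, the C protein of the U1 particle, stood at 334, 204, 464 and 429 CPM in the 2C sums, against 3.94 and 0.285 CPM in the oocyte sums. Snrpb, an Sm ring protein, stood at 113, 84.6, 178 and 169 CPM at 2C, against 2.88 and 2.47 CPM in oocytes. Snrpd2, also of the Sm ring, stood at 153, 159, 311 and 253 CPM at 2C, against 3.25 and 1.71 CPM in oocytes. For all 3 genes the lowest 2C sum lay far above both oocyte sums. Snrpb2, the B″ protein of the U2 particle, went the other way, with 27.8, 39, 28.4 and 20.2 CPM at 2C against 285 and 632 CPM in oocytes.

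The log2 changes from oocyte to 2C by edgeR were 5.87 ± 1.18 for Snrpc (SE, Benjamini-Hochberg adjusted p = 0.000575), 4.25 ± 0.942 for Snrpb (adjusted p = 0.00137), 5 ± 1.07 for Snrpd2 (adjusted p = 0.00104) and -5.36 ± 0.547 for Snrpb2 (adjusted p = 4.21e-07). All 4 were called in every scaling and unit tried and with each sum left out in turn. The other Sm genes did not follow: Snrpe had 253, 326, 486 and 469 CPM at 2C against 605 and 608 CPM in oocytes. Snrpg had 739, 866, 474 and 467 CPM at 2C against 828 and 573 CPM in oocytes, and its groups overlapped. Neither Snrpe nor Snrpg passed the test, whereas Snrpd3, with 136, 50.5, 105 and 78.3 CPM at 2C against 232 and 409 CPM in oocytes, fell by 3.17 on the log2 scale (adjusted p = 0.00545).

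At the same step 2 of 10 SR protein genes were called higher and none lower, where 13.8% and 13.2% of all genes were. Srsf1, the founding member of the SR family, stood at 334, 228, 360 and 472 CPM at 2C, against 15 and 17.8 CPM in oocytes, a log2 change of 3.02 ± 0.533 (edgeR, adjusted p = 0.000148). Srsf9 stood at 21.6, 26.5, 18.3 and 25.8 CPM at 2C, against 0.908 and 0.38 CPM in oocytes, a log2 change of 3.69 ± 1.17 (edgeR, adjusted p = 0.0207). The groups did not overlap in either gene, but the call of Srsf9 was lost without either oocyte sum. Srsf2, Srsf6 and Srsf7, whose 2C sums also lay above the oocyte sums in CPM (for Srsf7 258 to 847 CPM against 103 and 148 CPM), did not pass the test.

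Among the branch point factors, Sf3b6, a small protein that contacts the branch point itself, passed the test at this step. It stood at 138, 87.7, 204 and 245 CPM at 2C against 18.3 and 11.1 CPM in oocytes, a log2 change of 2.08 ± 0.556 (edgeR, adjusted p = 0.00637) that was lost without the Cast oocytes. Of the 19 Hnrnp genes, 7 were called lower at 2C and 1, Hnrnpab, higher, where 13.2% and 13.8% of all genes were. None of these Hnrnp calls was made in every scaling and unit tried. Hnrnpab stood at 1250, 1100, 1480 and 1550 CPM at 2C, against 131 and 298 CPM in oocytes. For Hnrnph1, which binds runs of G, the called change of -3.21 ± 0.506 (edgeR, adjusted p = 4.28e-05) rests on groups that overlap in CPM, with 89.4, 66.9, 34.2 and 47.3 at 2C against 72.9 and 370 in oocytes.

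In all, 16 of 49 members were called between oocyte and 2C, 7 higher and 9 lower, where 27% of all genes were called, 13.8% higher and 13.2% lower. The split depends on how the sums are put on one scale: scaling by the total count alone moves the median change of all genes to 1.45 on the log2 scale, against 0.04 in the main test, and then gives 19 members higher and 2 lower (21% and 5.31% of all genes). Size factors of the DESeq2 kind within edgeR (RLE) give 6 members higher and 16 lower (11.6% and 17.1% of all genes). The direction held for 15 of the 16 members in all 6 scalings and units. It turned for Hnrnpc. Called in the same direction in all 6 were 7 members, 6 higher and 1, Snrpb2, lower. Hnrnpul2, for example, changed by -1.44 in the main test but by -0.05 with library size alone. The calls of 6 members held with each sum left out in turn: Snrpb, Snrpb2, Snrpc, Snrpd2, Srsf1 and Hnrnph1. Fits without the B6 or the Cast oocytes keep 1 oocyte sum, which was taken to vary like the other sums. In CPM alone, 25 members had all 2C sums above both oocyte sums and 4 had all below, where 31.5% and 14.6% of all genes did.

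**Figure D3:**
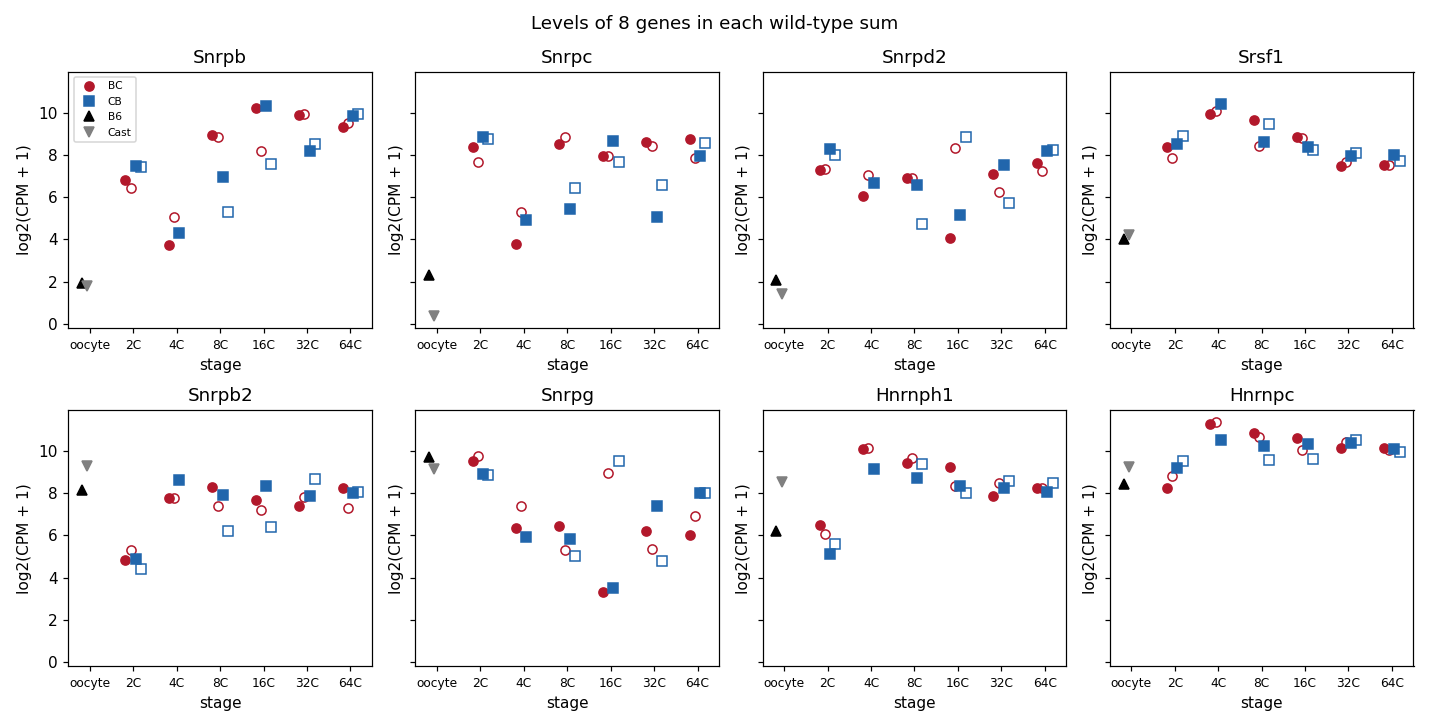
Log2 of CPM plus 1 (y axis) by stage (x axis) for 8 members, 1 point per wild-type sum with filled points for females and open points for males. Snrpb, Snrpc, Snrpd2 and Srsf1 in the upper row lie at most at 17.8 CPM in oocytes and at 84.6 CPM or more at 2C, Snrpb2 dips at 2C, Snrpg spreads at 16C over 9.18 to 744 CPM, and Hnrnph1 and Hnrnpc reach over 500 CPM at 4C.

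Between 2C and 4C, 7 of 19 Hnrnp genes were called higher and none lower, where 6.61% and 2.92% of all genes were. Hnrnpc, which binds runs of U in nascent transcripts, stood at 2450, 2660 and 1460 CPM in the 4C sums, against 306, 448, 587 and 724 CPM in the 2C sums, a log2 change of 2.42 ± 0.365 (edgeR, adjusted p = 0.000121). Hnrnph1 stood at 1090, 1140 and 563 CPM at 4C, against 89.4, 66.9, 34.2 and 47.3 CPM at 2C, a change of 4.32 ± 0.498 (edgeR, adjusted p = 7.4e-06). Hnrnpd, which binds AU-rich elements and marks messages for decay, stood at 316, 403 and 290 CPM at 4C, against 125, 102, 114 and 161 CPM at 2C, a change of 1.76 ± 0.378 (edgeR, adjusted p = 0.00374). The 4C and 2C groups did not overlap in any of the 3 genes. Hnrnpf, which binds G runs like its relative Hnrnph1, changed by 1.55 ± 0.359 (edgeR, adjusted p = 0.00654), with 1570, 1830 and 1560 CPM at 4C against 631 to 767 CPM at 2C.

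The other 3 of these 7 genes were Hnrnpk, which binds runs of C, Hnrnpu, a chromatin-associated scaffold protein, and Hnrnpa1, a silencer of exons. Hnrnpk changed by 1.34 and Hnrnpu by 1.29 on the log2 scale (edgeR, adjusted p = 0.0417 and 0.04), and each call was lost in 5 of 7 fits with a sum left out. Hnrnpa1 stood at 13.7, 56.2 and 50.1 CPM at 4C, against 3.01, 5.07, 0.176 and 1.78 CPM at 2C, a change of 4.33 ± 1.18 (edgeR, adjusted p = 0.0198) that was lost in 3 of 7 fits with a sum left out.

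Of the SR genes, 2 of 10 were called higher at this step and none lower, where 6.61% and 2.92% of all genes were. Srsf1 went on to 980, 1080 and 1340 CPM at 4C, against 334, 228, 360 and 472 CPM at 2C, a log2 change of 2.03 ± 0.402 (edgeR, adjusted p = 0.00169). Srsf3, the smallest SR protein, stood at 1550, 1350 and 726 CPM at 4C, against 268, 124, 455 and 714 CPM at 2C, a change of 1.96 ± 0.453 (edgeR, adjusted p = 0.00661). Srsf1 was well separated, while the lowest 4C sum of Srsf3 was only just above its highest 2C sum. Both calls held with each sum left out.

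The snRNP and branch point genes split at this step. Snrpb2 returned to 220, 220 and 390 CPM at 4C, against 27.8, 39, 28.4 and 20.2 CPM at 2C, a log2 change of 3.62 ± 0.492 (edgeR, adjusted p = 3.59e-05). Snrpc dropped to 12.8, 38.9 and 29.7 CPM at 4C, against 334, 204, 464 and 429 CPM at 2C, a change of -3.39 ± 0.856 (edgeR, adjusted p = 0.0125). Snrpb dropped to 12.3, 32.2 and 18.6 CPM at 4C, against 113, 84.6, 178 and 169 CPM at 2C, a change of -2.36 ± 0.706 (edgeR, adjusted p = 0.0342). Snrpb and Snrpc, which had appeared at 2C, were thus low again in every 4C sum. Sf3b5, a small subunit of the branch point complex, stood at 1.62, 5.64 and 2.72 CPM at 4C, against 64.4, 21.3, 127 and 124 CPM at 2C, a change of -4.33 ± 1.36 (edgeR, adjusted p = 0.0433).

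The call of Snrpc was lost without the 4C BC females, that of Snrpb in 5 of 7 fits with a sum left out and that of Sf3b5 in 6 of 7. Sf3b2 and Sf3b3, large subunits of the same complex as Sf3b5, were called higher, by 1.33 and 2.22 (edgeR, adjusted p = 0.0416 and 0.00475). Sf3b3 stood at 388, 189 and 182 CPM at 4C, against 56.7, 56.4, 65.7 and 96.5 CPM at 2C, without overlap. The call of Sf3b3 was lost without the 4C BC females and that of Sf3b2 in 6 of 7 fits with a sum left out. In the length-corrected signal both turned to a negative change, which is not called. The ratio of CPM to that signal itself moved in both genes, to 3.32 at 4C against 0.775 at 2C in Sf3b3 and to 2.58 at 4C against 0.956 at 2C in Sf3b2.

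Genes with a low ratio of CPM to the length-corrected signal moved with these drops. A low ratio means that the correction raised a gene, as it does for a short one. The ratio is not length alone: over the stages it ran between 0.489 and 0.51 in Snrpe but between 0.192 and 1.2 in Hnrnpl. Among 6401 genes with a mean over 20 CPM, the 641 with the lowest ratio over all wild-type sums include Snrpc, Snrpd1, Snrpd2, Snrpd3, Snrpe, Snrpg, Sf3b5 and Hnrnpl. These 641 genes took 5.79 to 7.2% of counts in the 4C sums, against 16.4 to 18.5% in the 2C sums. Their median log2 change from 2C to 4C was -1.35, against 0.40 for the remaining genes, and the medians of the members were -1.14 for these 8 members and 0.95 for the other 34 with a value. The part of length or of the correction in the drops was not tested. Snrpb, which also fell, is not among the 641 genes.

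In all, 15 of 49 members were called between 2C and 4C, 12 higher and 3 lower, where 9.53% of all genes were called, 6.61% higher and 2.92% lower. Of these 15 calls 7 held with each sum left out in turn, those of Hnrnpc, Hnrnpd, Hnrnpf, Hnrnph1, Snrpb2, Srsf1 and Srsf3. Without the 4C BC females 8 members were called, all higher, and without the 4C BC males 9, of which 8 higher (806 and 909 of all genes). Scaling by the total count alone gave 9 higher and 7 lower (4.51% and 3.82% of all genes), with a median change of all genes of -0.40 against -0.05 in the main test. The length-corrected signal gave 7 higher and 11 lower (3.94% and 22.7% of all genes). The changes of 10 members were called in the same direction in all 6 scalings and units: Hnrnpa1, Hnrnph1, Snrpb2, Hnrnpc, Srsf1, Srsf3 and Hnrnpd higher, and Sf3b5, Snrpc and Snrpb lower. In CPM, 14 members had all 4C sums above all 2C sums and 17 had all below, where 12.4% and 15.6% of all genes did.

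The promoters of the members were read for short motifs. RefSeq promoters (build GRCm38.p6, 250 bases before to 50 bases after each start) were at hand for 44 of the 50 members. CCAAT, the letters bound by the factor NF-Y, was searched on both strands and stood in at least 1 promoter of 21 of 44 members (47.7%), where 41.1% of 27025 genes had it. By family these were 3 of 9 Snrp (33.3%), 2 of 7 Sf3 (28.6%), 4 of 11 Srsf (36.4%) and 12 of 17 Hnrnp members (70.6%). CCGGAAGT, bound by factors of the ETS family, stood in 9 of 44 members (20.5%), where 4.31% of genes had it, with 1 of 9 Snrp, 3 of 7 Sf3, 3 of 11 Srsf and 2 of 17 Hnrnp members. TATAAA stood in 13.6% of members and 15.7% of genes, and the cores bound by NRF1 and by YY1 in 1 member each (2.27%), where 1.07% and 0.995% of genes had them. A motif so read is a match of letters and not a shown site. The 30-base windows below are from 4 genes that were high at 4C and are shown with the motif in capitals, as CCAAT or its reverse complement ATTGG in the first 3 and CCGGAAGT in the last, each 5′ to 3′ on the strand of the gene.
Hnrnpc, chr14:52104058-52104087, minus strand: gaaaagtcacagCCAATaggaacgcctcca
Hnrnpab, chr11:51606905-51606934, minus strand: ggttcgctttgcCCAATgagagtatccgtt
Srsf3, chr17:29032590-29032619, plus strand: gcgccgcctctgATTGGgtgatctggtcag
Hnrnpf, chr6:117900279-117900308, plus strand: ggggctgcacaCCGGAAGTccctgtgcttc
The motif starts at -54 from the start site in Hnrnpc, at -41 in Hnrnpab, at -58 in Srsf3 and at -50 in Hnrnpf. These genes were chosen after their levels were seen, and Hnrnpab did not pass the test from 2C to 4C (change 0.65, edgeR adjusted p = 0.255).

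Between 4C and 8C, Snrpb rose again, and so did Sf3b4, a branch point factor. Snrpb stood at 499, 463, 124 and 37.9 CPM in the 8C sums, against 12.3, 32.2 and 18.6 CPM at 4C, a log2 change of 3.78 ± 0.759 (edgeR, adjusted p = 0.0302). Sf3b4 stood at 199, 264, 23 and 17.4 CPM at 8C, against 4.06, 10.6 and 6.94 CPM at 4C, a change of 4.14 ± 0.969 (edgeR, adjusted p = 0.048). In both genes every 8C sum lay above every 4C sum, but the 2 BC sums were several times higher than the 2 CB sums. Snrpc, with 370, 462, 43.1 and 86.4 CPM at 8C against 12.8, 38.9 and 29.7 CPM at 4C, had the next smallest p and was not called (change 3.22, edgeR adjusted p = 0.0833).

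These 2 members, both higher, were the only ones of 49 called between 4C and 8C, where 0.457% of all genes were called. Neither call held with each sum left out. Limma on the length-corrected signal called 0 members (0.717% of all genes), and DESeq2 called 11, all higher (7.86% of all genes).

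From 8C on, no step between neighbouring stages called a member by edgeR, while 14, 4 and 0 members had an unadjusted p under 0.05 at the 3 steps in turn. For 8C to 16C, 0.614% of all genes were called, for 16C to 32C 0.632%, and for 32C to 64C 0.138%. The 0 from 8C to 16C rests on single sums: without the 8C BC males 5 members were called, and without the 8C BC females 2, all lower (369 and 171 of all genes). The smallest p from 8C to 16C belonged to Sf3b1, the largest subunit of the branch point complex, with 365, 292, 185 and 280 CPM at 16C against 695, 502, 764 and 1120 CPM at 8C. The groups of Sf3b1 did not overlap, and the log2 change was -1.71 (edgeR, adjusted p = 0.0619). Next came Hnrnpr, with a change of -1.66 (edgeR, adjusted p = 0.0853), and Hnrnpll, known for controlling the splicing of a surface receptor in lymphocytes, with -2.44 (edgeR, adjusted p = 0.106). DESeq2 called 9 members at this step, 2 higher and 7 lower, where it called 7.15% of all genes. Limma on the length-corrected signal called 2, both higher, where it called 2.51%.

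From 16C to 32C the smallest p belonged to Srsf9, Hnrnph3 and Snrpg, with log2 changes of -2.1, 3.97 and -1.89, and from 32C to 64C to Snrpd2, Snrpa1 (the A′ protein of the U2 particle) and Hnrnpm, with 1.12, -0.59 and 0.76. None of these passed. DESeq2 called 2 members from 16C to 32C, 1 higher and 1 lower, where it called 4.81% of all genes, and 0 from 32C to 64C. Hnrnph3 was low throughout, with 5.44, 6.46, 1.85 and 0.285 CPM at 32C against 0.279, 0.0648, 0.541 and 0 CPM at 16C.

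Within stages, some members split the sums in ways that the stage test does not read. At 16C, Snrpg stood at 503 and 744 CPM in the BC and CB males and at 9.18 and 10.4 CPM in the BC and CB females, and Snrpe at 617 and 389 CPM in males and 14.8 and 24.6 CPM in females. The cells behind them did not overlap: the 3 BC male cells held 404 to 653 CPM of Snrpg and the 8 BC female cells 5.08 to 12.8 CPM, and the CB male sum is 1 cell. In 16 of 49 members, Snrpd1, Snrpd2, Snrpd3, Snrpe, Snrpf and Snrpg among them, both male sums at 16C lay above both wild-type female sums and the mutant female sum, where 12.2% of all genes did. The 641 genes of low CPM to RPRT ratio took 19.3 and 18.3% of counts in the 2 male sums and 3.48 and 6.27% in the 2 female sums. The part of length, of the correction and of single embryos was not tested, and these patterns were picked after the values were seen.

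At 8C and 32C the split ran between other sums. Sf3b5 stood at 131 and 130 CPM in the BC sums at 8C, against 4.72 and 7.12 CPM in the CB wild-type sums and 0.139 CPM in the CB mutant sum. At 32C it stood at 298 and 171 CPM in the BC sums and at 301 and 337 CPM in the CB mutant sums, against 16.2 and 30.6 CPM in the CB wild-type sums. Snrpa, the A protein of the U1 particle, followed the same order, with 179 and 264 CPM in the BC sums at 8C against 10.6 and 10.1 CPM in CB, and at 32C with 235 and 265 CPM in BC and 319 and 252 CPM in the CB mutants against 14.5 and 8.15 CPM in CB wild types. The pattern, BC above CB at 8C and CB wild types below all others at 32C, was shared by 10 of 49 members: Snrpa, Snrpa1, Snrpb, Snrpc, Snrpf, Sf3a2, Sf3b4, Sf3b5, Hnrnpm and Hnrnpul1 (20.4%, where 3.96% of all genes had it). The pattern asks for order alone, and its gaps can be small. For Snrpa1 at 32C, the mutant sums held 225 and 232 CPM against 196 and 205 CPM in CB wild types. The pattern was found by looking, so no test is given.

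The allelic table covers 44 of the 50 members. Its value is read as the share of parentally assigned reads that come from the father's allele, since the median over X-linked genes is 0 to 0.0204 in wild-type males and Xist stands at 0.974 to 1 in wild-type females from 4C on. The share of a gene in a group is averaged over the cells with at least 10 reads of it in the count table. The depth behind a share is unknown. In oocytes, where a share should be 0, the median member stood at 0.0142.

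By 2C the splicing factor genes already carried much RNA from the father's allele. Their median share was 0.437 ± 0.0608 in the 4 groups at 2C (SD over groups) and 0.478 ± 0.00992 in the 3 groups at 4C. The later stages had 4 groups each, with 0.499 ± 0.0425 at 8C, 0.498 ± 0.0304 at 16C, then 0.51 ± 0.025 for 32C and 0.502 ± 0.0151 for 64C. The same median over all autosomal genes was 0.334 ± 0.0866 at 2C, 0.437 ± 0.0203 at 4C and 0.505 ± 0.00752 at 64C. The difference of the members from other genes was not tested. Of the 26 members with a share in at least 3 groups at 2C, 16 averaged 0.4 or more and 3 averaged less than 0.25. How many of all genes did so was not counted. Each 2C group holds 1 or 2 cells, and the CB female group is the cell with conflicting cross labels.

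Snrpb, low in oocytes, had shares of 0.433, 0.446, 0.426 and 0.443 in the 4 groups at 2C. Snrpe had 0.451, 0.392, 0.403 and 0.603, although its oocyte sums held 605 and 608 CPM. The 3 members under 0.25 were Sf3b1, at 0 in all 3 groups with a value, Hnrnpa3, with a mean of 0.111, and Sf3a2, with 0.119 and few reads. Sf3b1 held 446 to 1080 CPM at 2C and 543 and 612 CPM in oocytes, and by 4C its shares were 0.407, 0.412 and 0.576.

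Hnrnpa3 was the only member called for a change of share between 2C and 64C. It stood at 0.401, 0.255, 0.615 and 0.54 at 64C, against 0.131, 0.05, 0 and 0.262 at 2C, a difference of 0.342 ± 0.0874 (SE, limma, Benjamini-Hochberg adjusted p = 0.0239). It was 1 of 20 members tested (5%), where 6.57% of the 1964 genes tested were called, 126 of these 129 higher at 64C. One 2C group overlapped one 64C group, and the call held in 4 of 8 fits with a group left out. Sf3b1 was not tested here, since the 2C CB female group has no share for it.

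**Figure D4:**
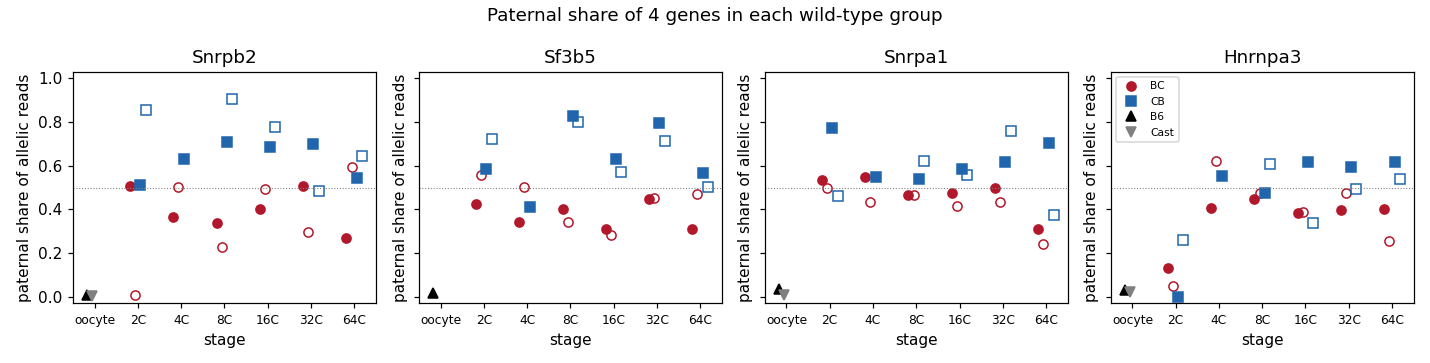
Paternal share (y axis, 0 to 1, dotted line at 0.5) by stage (x axis) for Snrpb2, Sf3b5, Snrpa1 and Hnrnpa3, 1 point per wild-type group, BC as red circles and CB as blue squares, filled for females and open for males. For Sf3b5 both BC points lie below both CB points at every stage with both sexes in both crosses, and Hnrnpa3 lies at 0 to 0.262 at 2C.

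Paternal shares differed between the crosses in some members, 15% of those tested against 17.6% of all genes. If the B6 allele gives more RNA than the Cast allele whichever parent it comes from, the paternal share is low in BC, where the father is Cast, and high in CB. The part of read placement on the build mm10 in such a pattern was not tested. Sf3b5 had this pattern, with 0.312 and 0.284 in BC against 0.63 and 0.571 in CB at 16C, and with 0.446 and 0.454 in BC against 0.795 and 0.714 in CB at 32C. Its share was lower in BC in 11 of 11 pairs of stage and sex, by a difference of -0.253 ± 0.0471 (limma, adjusted p = 0.00179). In every Sf3b5 pair at 2C, 4C and 8C and in the 16C males, at least 1 side rested on 1 cell. At 4C both sides did, with 0.342 in BC against 0.412 in CB. Snrpb2 was also lower in BC in 11 of 11 pairs, by -0.314 ± 0.0699 (limma, adjusted p = 0.0065), with for example 0.338 and 0.227 in BC against 0.709 and 0.905 in CB at 8C.

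Snrpa1 was lower in BC in 9 of 11 pairs, by -0.15 ± 0.0457 (limma, adjusted p = 0.0335). At 64C its shares were 0.309 and 0.243 in BC against 0.704 and 0.375 in CB. These were 3 of 20 members tested, all lower in BC, where 17.6% of 1967 genes were called, 4.93% higher and 12.7% lower. The calls of Sf3b5 and Snrpb2 held with each of the 11 pairs left out, that of Snrpa1 in 3 of 11 fits. Over 16C to 64C alone, where more genes have a share in every group, Srsf7, an SR protein, was called as well, with -0.463 ± 0.0619 (limma, adjusted p = 0.00347), where 9.59% of 3410 genes were called. Its shares at 32C were 0.362 and 0.145 in BC against 0.651 and 0.644 in CB, and at 64C 0.176 and 0.162 in BC against 0.667 and 0.765 in CB. In the same stages Snrpa1 was not called (limma, adjusted p = 0.0766).

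No member was called for a preference for one parent's allele from 16C to 64C. The mean of BC and CB, in which a strain preference cancels, was tested against 0.5 for 25 members, and none was called by limma, where 3.02% of genes were called. None had an unadjusted p under 0.05 either. The differences from 0.5 ran from -0.0681 to 0.0594, with a median SE of 0.0299. The smallest p belonged to Hnrnpdl, a relative of Hnrnpd, at -0.0681, Snrpd1 at 0.0594 and Hnrnpa3 at -0.0418 (limma, adjusted p = 0.529, 0.656 and 0.744). By mean share, Snrpd1 (0.559), Snrpb2 (0.533) and Snrpe (0.533) were highest and Hnrnpdl (0.432), Hnrnpul2 (0.457) and Hnrnpa3 (0.458) lowest. All 25 lay between 0.4 and 0.6, where 90.9% of 3353 autosomal genes did.

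No member differed in level between the crosses beyond the test's threshold. Over 11 pairs of stage and sex, 0 of 49 were called between BC and CB (edgeR), and 2 had an unadjusted p under 0.05, where 0.0124% of 16171 genes were called. DESeq2 called 1, Hnrnpll, where it called 4.87% of all genes. Its log2 difference by edgeR was -1.22 ± 0.345 (adjusted p = 0.269), and it was lower in BC in 10 of 11 pairs, for example at 26.1 and 49.5 CPM in BC against 56.7 and 132 CPM in CB at 32C. Srsf11 followed with -0.86 and Hnrnpr with -0.55 (edgeR, adjusted p = 0.321 and 0.441), lower in BC in 9 and 8 of 11 pairs. The differences of all members ran from -1.22 to 1.64 with a median of -0.02, and the estimates of 44 members were smaller than 2-fold. The median SE was 0.284 and the largest 1.37. These estimates pool the 11 pairs, and single pairs spread wider. Log2 ratios of CPM plus 1 ran from -2.75 to 4.58 in the 8C males and from -1.61 to 4.86 in the 32C males. The mix of cells moved with the cross at 64C, where trophectoderm markers added up to 7980 and 9180 CPM in the BC sums against 2540 and 273 CPM in the CB sums. Its part in the comparison was not tested.

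The cells labelled Xist wt/ko were compared with wild-type CB cells. Over 6 pairs of mutant and wild-type CB sums, 0 of 49 members were called by edgeR, with 1 at an unadjusted p under 0.05, where 0.0% of 14359 genes were called. Hnrnpa2b1, a protein that also carries RNA in the cytoplasm, had the smallest p. It stood at 552, 554, 157, 167, 252 and 275 CPM in the mutant sums (8C, 16C and 32C females, 32C males, 64C females and 64C males), against 636, 596, 343, 259, 279 and 661 CPM in the matching wild types. It was lower in the mutant sum in 6 of 6 pairs, by -0.63 ± 0.277 on the log2 scale (edgeR, adjusted p = 0.999).

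Srsf10, an SR protein that represses splicing when it loses its phosphates, and Snrpe came next, with 0.48 and 0.7. All members ran from -0.63 to 1.13 with a median of 0.11 and a median SE of 0.389, and 46 of 49 had an estimate under 2-fold. In the 4 female pairs alone, 0 members were called and 0 had an unadjusted p under 0.05 (edgeR). The median of the members was then -0.08, Hnrnpa2b1 stood at -0.51, and Snrpe at 0.07 instead of 0.7. DESeq2 called 0 members too, where it called 0.961% of all genes. For paternal shares, 0 of 30 members were called between the genotypes by limma, with 2 at an unadjusted p under 0.05, where 0.0% of 4085 genes were called. The smallest p belonged to Hnrnpll, Srsf7 and Srsf5, with differences of 0.125, -0.158 and 0.174 (limma, adjusted p = 0.848). Mutant and wild-type cells stand in separate sheets and no batch is named, so genotype and collection cannot be told apart. Lineage markers differed within the male pairs: those of the trophectoderm added up to 1970 CPM in mutants against 659 CPM in wild types at 32C and to 1420 against 273 CPM at 64C, and those of the inner cell mass and epiblast to 172 against 846 CPM and to 558 against 1230 CPM. Their part in the comparison was not tested.

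**Figure D5:**
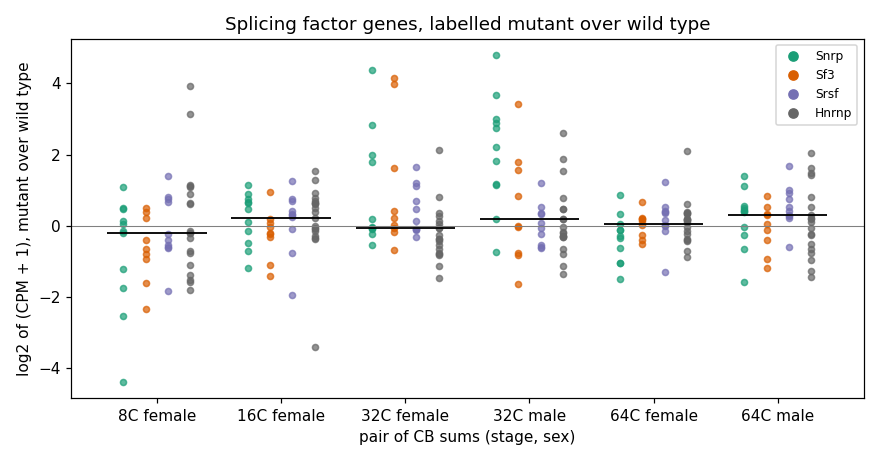
Log2 ratio of CPM plus 1 in the mutant sum over that in the wild-type sum (y axis) for the 49 measured members (points, coloured by family) in each of the 6 pairs of CB stage and sex (x axis), with a line at the median of the pair. The medians lie between -0.21 and 0.3, and the spread is widest in the 8C, 32C female and 32C male pairs, where single Snrp and Sf3 genes reach -4.37 and 4.79.

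The other genes of the splicing machinery give a setting for the members. A list of 107 such genes, in 10 groups, holds the remaining U1 and U2 factors, the tri-snRNP, the LSm ring, the assembly factors, the catalytic helicases, the minor spliceosome, the SR kinases, the exon junction complex and other regulators. Between oocyte and 2C, 30 rose and 24 fell by edgeR (50.5%, against the 27% of all genes given above). Other scalings, which changed the split of the members at this step, were not counted for the lists. The assembly factors that load Sm proteins onto small nuclear RNAs had 6 of 12 genes higher and 1 lower. Gemin5, which recognises the small nuclear RNAs, averaged 146 ± 60.6 CPM at 2C (SD, n = 4) and 2.06 ± 1.04 CPM in oocytes (n = 2). Wdr77, a partner of the methyltransferase Prmt5 that modifies Sm proteins, averaged 283 ± 35.4 CPM at 2C and 2.46 ± 2.94 CPM in oocytes, and Ddx20, a helicase of the SMN complex, 233 ± 95.9 CPM and 0.303 ± 0.428 CPM.

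The LSm ring had 3 of 8 genes lower at 2C and none higher, with Lsm5 at 4.53 ± 3.11 CPM at 2C and 47.2 ± 7.48 CPM in oocytes. Of the tri-snRNP 4 of 16 rose and 4 fell, and of the catalytic helicases and their partners 6 of 14 rose and 2 fell. The SR kinases and SR-related genes split, with 3 of 11 higher and 3 lower. Srpk1, which phosphorylates SR proteins, averaged 170 ± 59.6 CPM at 2C and 2.29 ± 1.36 CPM in oocytes, while Clk2, another such kinase, averaged 45.5 ± 20.4 CPM at 2C and 235 ± 39.9 CPM in oocytes. The exon junction complex had 3 of 8 higher and 3 lower, the minor spliceosome 4 of 7 higher and 1 lower, and the other regulators of alternative splicing 1 of 18 higher and 7 lower. The remaining U1 factors had 1 of 5 and the U2 factors 2 of 8 higher, with none lower. Of all genes, 13.8% were called higher and 13.2% lower at this step. From 2C to 4C these were 6.61% and 2.92%. Between 2C and 4C, 18 of the 107 rose and 3 fell (19.6%, against 9.53% of all genes), among them 6 of 16 of the tri-snRNP, 4 of 18 of the other regulators and 3 of 12 of the assembly factors. Eftud2, a GTPase of the U5 particle, averaged 173 ± 18.1 CPM at 4C (n = 3) and 9.78 ± 5.2 CPM at 2C. Lsm5 returned to 89.1 ± 18.3 CPM at 4C. After 4C, 1 of the 107 was called at any step, the SR kinase Clk1, which fell by 2.5 on the log2 scale from 8C to 16C (edgeR, adjusted p = 0.0483). Between 0.138% and 0.632% of all genes were called at these steps.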

How the data were processed

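RNA of 182 single cells was amplified from the 3′ end of polyadenylated transcripts and read from one end over 50 bases, per the labels' protocols. The submitters' processing notes list the build mm10 with SAMtools, HTSeq 0.6.1 and TopHat2 2.1.0. Not given in the sources used here are the use of strand, the treatment of reads with several matches and the definition of RPRT. Whole-number counts per gene (24499 genes) were deposited by the authors, as were a signal normalized for depth and length (RPRT, 20711 genes) and an allelic fraction per gene and cell (15253 genes). Totals ranged between 2.54M and 40.05M counts in a cell (M for mega), median 8.78M. Amplified reads are not independent molecules, so the limit given for a count of 0, 3 counts, covers counting error only.

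Counts of cells with the same stage, cross, sex and genotype were added up to 31 sums, and 1 sum was 1 sample. Cells of a sum may share an embryo, so p-values measure the spread between sums, which mixes embryos with technical variation. In the stage test this spread also holds the differences of cross and sex, or of strain in oocytes. Each such combination has 1 sum in a stage. Replicate numbers name cells and pair nothing. No pair of cells in a group agreed within counting noise (lowest chi-square per degree of freedom 16.1). A cell of the 2C CB female group has conflicting cross labels and its title was followed.

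Expression was tested with edgeR 4.0.16 in R 4.3.3 (quasi-likelihood test, TMM scaling, filterByExpr, Benjamini-Hochberg adjusted p under 0.05 over all genes): stages in a single fit of 25 wild-type sums (16622 genes), BC against CB in 11 pairs, mutant against wild type in 6 pairs. Paternal shares, per group the mean over cells with at least 10 reads, were tested with limma 3.58.1. Alternatives were RLE size factors, library size alone, no filter, DESeq2 1.42.0, limma on log2 of RPRT or of mean CPM per cell (pseudocount 1), covariates, other minimums and leaving out sums. The tests were tried on simulated counts. RefSeq gave promoters (GRCm38.p6).

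The members were taken by symbol, and the members and gene lists were chosen with earlier results of these data known. Named are up to 20 called members of a comparison by size of change (10 for shares), or the 3 with the smallest p where fewer than 3 pass, the 5 highest and lowest by RPRT and the 3 highest and lowest late shares. Other members in the text were chosen after their values were seen. No protein sequence was used here.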

Additional observations from a re-analysis of the deposited data

Results flagged for a closer look

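Within each stage of 4 wild-type sums, the highest and the lowest sum were checked for a gap to the other 3 that is large for the range of the 4, in 220 sets: 50 of families and 170 of 34 named genes. Such a check flags about 1 set in 20 by chance, and 9 were flagged. At 8C, all members together took 1.88% of counts in the BC females, above the other 3 sums. At 16C, the Srsf genes took 0.259% in the CB females, below the others. For shares, the Sf3 genes had a median paternal share of 0.587 in the 32C CB females, above the others, and the Snrp genes 0.341 in the 64C BC females, below the others.

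The CB male sum at 8C, which is 1 cell, stood apart in 3 genes. It had 60 CPM of Sf3b6 and 25.4 CPM of Snrpd2, both lower than the others, and 424 CPM of Srsf10, higher than the others. Sf3b1 was low in the 64C BC males, at 144 CPM, and Srsf3 was high in the 16C BC females, at 1320 CPM.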

How the results depend on the processing

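The number of members called from 2C to 4C, 15 in the main test, was 23 with sex and cross as covariates (17 higher, 6 lower), where 1911 of 15356 genes were called. From 4C to 8C, 2 in the main test, both higher, it was 11 by DESeq2 (7.86% of all genes) and 1 with library size alone (37 of 16622 genes), all higher. It was 0 by limma on RPRT (0.717% of all genes) and 1, lower, by limma on mean CPM per cell (395 of 16622 genes). From 8C to 16C, 0 in the main test, it was 9 by DESeq2, 2 higher and 7 lower (7.15% of all genes). It was 2, both higher, by limma on RPRT (2.51% of all genes) and on mean CPM per cell (314 of 16622 genes). By DESeq2 it was 2 from 16C to 32C, 1 higher and 1 lower (4.81% of all genes), and 1, lower in BC, between the crosses (4.87% of all genes), against 0. With each sum left out in turn, the number called ran from 9 to 15 from oocyte to 2C, from 8 to 14 from 2C to 4C, from 0 to 2 from 4C to 8C, from 0 to 5 from 8C to 16C and from 0 to 1 for shares at 64C against 2C. Where it left an arm with 1 sum, that sum was taken to vary like the others. Over all genes the number called then ran from 806 to 1277 from 2C to 4C and from 0 to 81 from 4C to 8C. It ran from 5 to 369 from 8C to 16C and from 49 to 120 for shares at 64C against 2C. With a 2C sum left out, 3742 to 4276 genes were called from oocyte to 2C, 14 or 15 of them members. Among named genes, Hnrnpc from oocyte to 2C turned to 0.11 with library size alone and 0.06 by limma on mean CPM per cell, and from 2C to 4C Sf3b3 turned to -0.26 and Sf3b2 to -0.43 by limma on RPRT. The causes were not tested. Of the other values of named genes under an alternative, 368 kept direction and call, 58 lost the call and 8 gained it, and with a sum left out 362 kept both, 73 lost the call and 5 gained it. Library size alone was chosen after seeing the data. Shares at 64C against 2C with at least 3 cells a group gave no value, since no 2C group has 3 cells. No paired analysis was possible because replicate numbers name cells, which were added up; the cross and genotype tests instead pair sums of one stage and sex. The small number of sums, some of 1 cell, and the unknown depth of shares limit what could be seen.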
